A study of Mus musculus with 18 samples.

Results

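The tumour suppressor gene Trp53 (p53), its inhibitors Mdm2 and Mdm4 and 7 genes that p53 is known to activate were followed through erythroid differentiation of mouse erythroleukemia (MEL) cells. The members were chosen by symbol: Trp53, Mdm2, Mdm4, Ccng1, Sesn1, Sesn2, Zmat3, Phlda3, Trp53inp1 and Perp. Each of the 10 had 1 row among the 26599 genes of the RNA-seq table, and 9 of them were expressed highly enough to be tested. MEL is an established line of virus-transformed red cell precursors, bought from a cell bank, and the labels name no genotype, transgene or sorted population. Day 0 libraries came from cells grown in RPMI-1640 medium with fetal bovine serum. Day 5 libraries came from cells of the same line kept for 5 more days after DMSO was added to the medium at 2%. Each day had 2 biological replicates of stranded total RNA. The labels describe the day 5 cultures as mostly, not wholly, hemoglobin-positive, so they remained a mixture. No untreated day 5 culture is among the samples used here, so DMSO and time in culture cannot be told apart.

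p53 is a transcription factor that is held at a low level in unstressed cells and accumulates after DNA damage, nucleolar stress or oncogene activation. MDM2 is a ubiquitin ligase that marks p53 for degradation, and Mdm2 is itself switched on by p53, which closes a feedback loop. MDM4 is a relative of MDM2 that binds p53 and blocks its activity. The targets stop the cell cycle, restrain growth signalling, promote cell death or aid repair. In red cell precursors p53 is best known for the arrest and death that follow a shortage of ribosomal proteins. Erythroleukemia lines raised with Friend virus have often lost normal p53 function during their selection, and the labels do not give the p53 status of this culture. The RNA measured here says nothing about the amount or activity of p53 protein, which is controlled largely after translation.

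The promoter sequences are shown because p53 binds DNA at a 10-base motif, the p53 decamer, usually present as a pair. RefSeq windows on build GRCm38.p6, reaching from 250 bases before to 50 bases after an annotated start, were matched by symbol for 7 of the 10 members. They gave 9 windows, since Mdm4 and Sesn1 each have windows for more than 1 start. Zmat3, Trp53inp1 and Perp had none. On either strand, 4 of the 9 windows held a match to the decamer, against 8.36% of all 32817 windows of this length. Each line gives 60 bases on the gene's own strand, 5′ to 3′, with the decamer in capitals.
Trp53, chr11:69580259-69580318, plus strand: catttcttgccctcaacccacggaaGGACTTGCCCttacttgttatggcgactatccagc
Mdm2, chr10:117710910-117710969, minus strand: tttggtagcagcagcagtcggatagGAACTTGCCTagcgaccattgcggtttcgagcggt
Ccng1, chr11:40755437-40755496, minus strand: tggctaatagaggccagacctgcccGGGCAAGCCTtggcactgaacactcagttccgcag
Sesn1, second start, chr10:41887241-41887300, plus strand: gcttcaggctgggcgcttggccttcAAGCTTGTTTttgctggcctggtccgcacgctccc
The match began 75 bases before the start in Trp53, 186 in Mdm2, 185 in Ccng1 and 173 in Sesn1. The windows of Mdm4, Sesn2 and Phlda3 held no match. A match in a single decamer describes the letters, and whether p53 binds there was not tested. Pairs of decamers and matches with a mismatch were not searched for.

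Motifs of blood cell factors were searched in the same windows on both strands. The GATA motifs AGATAA and TGATAA were in 0 of the 9 member windows, against 11.2% and 9.06% of all windows. GAGGAA, the core bound by PU.1, was in 1 (Ccng1), against 28.3%. The KLF motif CCNCNCCC was in 7, against 49.5%, and the GC box CCGCCC, which can overlap it, in 5, against 35.6%. The E-box CANNTG was in 4, against 72.3%. The member windows had a median GC content of 64.7%, against 52.7% over all windows, and the motif shares were not adjusted for it.

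Expression was deposited as FPKM, a unit that scales the fragments of a gene by its length and by the size of the library. The 4 libraries summed to between 758150 and 787494 FPKM and held between 10227 and 10601 genes at 1 FPKM or more. Replicates correlated across genes at r = 0.964 on day 0 and 0.939 on day 5. Red cell markers tracked the labels. Hba-a1, an alpha-globin gene, was at 426 and 280 FPKM on day 0 and at 17920 and 14670 on day 5, and 12 of 14 erythroid markers rose while none fell. Of those that rose, Slc4a1 and Epb4.2 passed the filter of 1 FPKM only through their day 5 libraries. Sfpi1, which encodes the myeloid factor PU.1, fell from 55.4 and 101 FPKM to 2.37 and 3.55. Markers of other blood cells moved with the days, and those of the myeloid, lymphoid and mast cell lists were low. The 9 myeloid markers summed to 13.5 and 8.63 FPKM on day 0 and to 0.614 and 1.26 on day 5. Nearly all of it was Fcgr3, which fell from 13.5 and 8.08 FPKM to 0.614 and 1.26 (log2 fold change -2.59, limma adjusted p = 0.018). Another 6, Csf1r, Lyz2, Cd14, Mpo, Elane and Adgre1, were at 0 in every library, and Itgam was at 7.3e-21 FPKM or less. Of the lymphoid markers, Cd3e and Cd4 were at 0 throughout, Cd79a and Ptprc were below 1 FPKM in every library, and Thy1 went from 5.57 and 2.04 FPKM on day 0 to 0 on day 5. The 4 mast cell markers summed to 10.2 and 6.48 FPKM on day 0 and 0.383 and 0.376 on day 5, with Cpa3 and Fcer1a at 0 throughout. Nearly all of that sum was Hdc, which fell from 10.15 and 6.13 FPKM to 0.383 and 0.376 (log2 fold change -2.69, limma adjusted p = 0.0148). Hdc passed the filter of 1 FPKM only through its day 0 libraries, and Fcgr3 would not have passed on its day 5 libraries alone. The 5 megakaryocyte markers summed to 57.3 and 18.0 FPKM on day 0 and to 136.1 and 110.5 on day 5, with Ppbp at 0 throughout. Most of the day 5 sum was Itga2b, which rose from 15.4 and 7.32 FPKM to 103.8 and 92.8 (log2 fold change 3.09, limma adjusted p = 0.0119). Pf4 did not rise with it, at 41.35 and 8.39 FPKM on day 0 and 28.1 and 13.0 on day 5, with overlapping days. The log2 fold change of Pf4 was 0.0185 (limma adjusted p = 0.989). Gp9 went from 0.546 and 2.20 FPKM to 3.27 and 3.77 and was not called (limma adjusted p = 0.158). Vwf was below 1 FPKM in every library. The 4 fibroblast markers summed to at most 0.255 FPKM. The part of these markers in the results that follow was not tested.

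The members spanned a wide range of levels, in FPKM, which is per length and so can be set side by side between genes. On day 0 the order of the means was Trp53, Ccng1, Mdm2, Mdm4, Sesn1, Sesn2, Phlda3, Zmat3, Trp53inp1 and Perp. Trp53, Ccng1 and Mdm2 stood apart from each other and from the rest in both libraries. The day 0 values of Sesn2 overlapped those of Mdm4 and of Sesn1, and those of Phlda3 overlapped those of Zmat3. On day 5 Sesn1 stood above Mdm4 and just under Mdm2, Sesn2 stood above Mdm4, and Trp53inp1 stood above Zmat3. At each time 4 of the 9 tested members lay above the median level of all tested genes, which was 14.96 FPKM on day 0 and 17.9 FPKM on day 5.

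**Figure D1:**
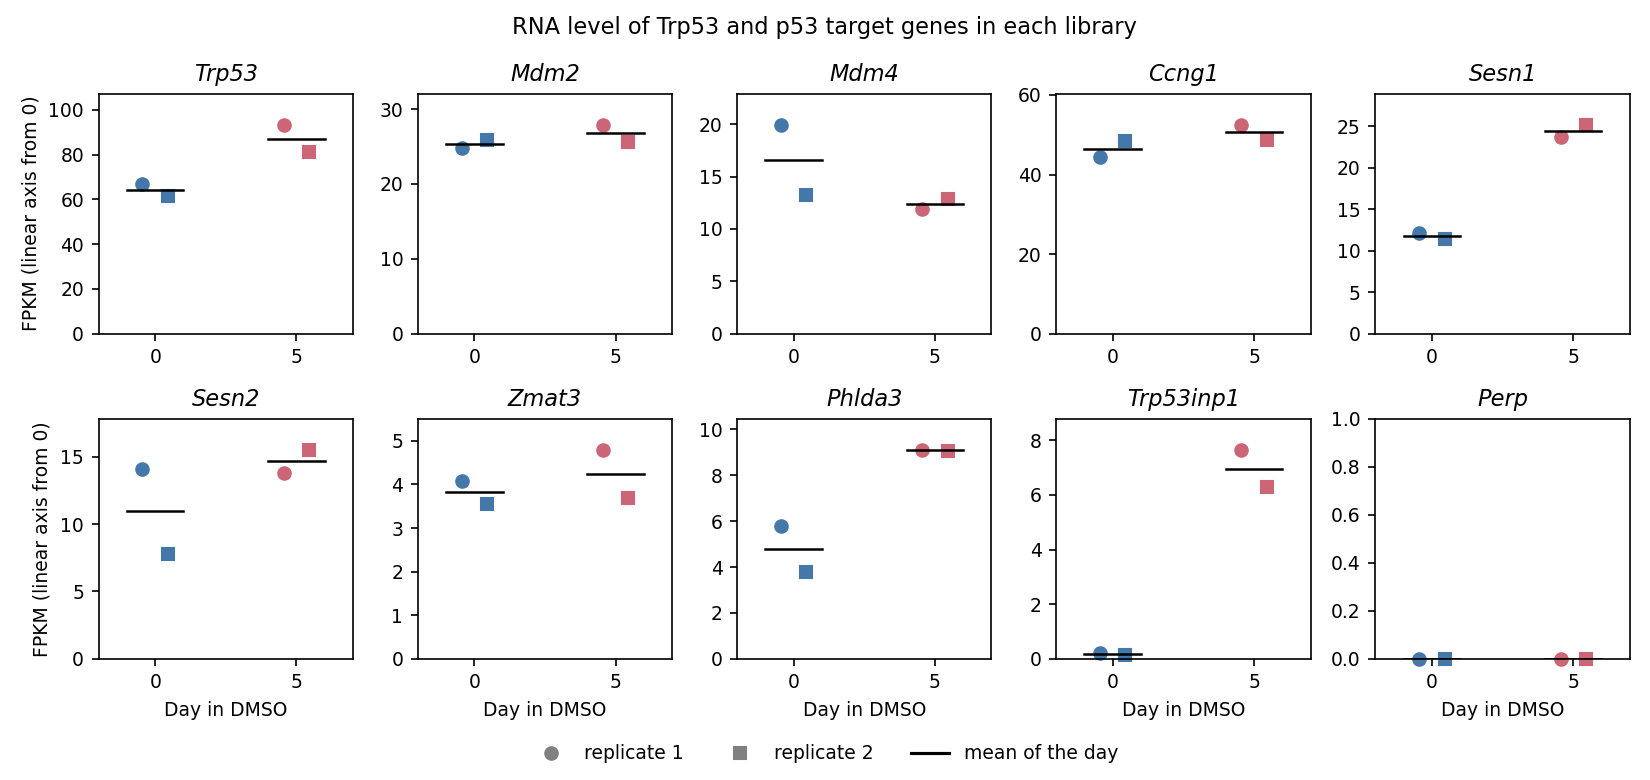
FPKM of each member in each of the 4 RNA libraries, day 0 and day 5, with a line at each day's mean. Trp53 is the highest member on both days, Trp53inp1 goes from under 1 FPKM in both day 0 libraries to 6.28 and 7.65 on day 5, and Perp is listed at 0.

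The question for each member was whether its RNA differed between day 5 and day 0 beyond the spread of replicates. Of the 9 tested members, 2 rose (Sesn1 and Trp53inp1), none fell and 7 did not pass limma's moderated test on log2(FPKM + 1) at a Benjamini-Hochberg adjusted p under 0.05. Trp53inp1 entered the test only through its day 5 libraries, so it could enter only as a gene higher on day 5. Over all 10736 genes tested, 18.5% were called: 10.7% higher on day 5 and 7.81% lower. The 22.2% called among the members is thus near the background and is no result about the members as a group. At an unadjusted p under 0.05 the test took in 3 members, the third being Phlda3, against 38.6% of all tested genes, so this count too is near the background. Both day 5 libraries were above both day 0 libraries in 5 members, against 40.2% of all tested genes, and below them in 1, against 27.0%. The median log2 fold change of the members was 0.43 and that of all tested genes 0.15. Mdm2, Mdm4, Ccng1 and Zmat3 lay below the median of all genes. Fold changes on this scale understate the change of genes near 1 FPKM. In bulk RNA, fewer cells of a type and less RNA per cell cannot be told apart.

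**Figure D2:**
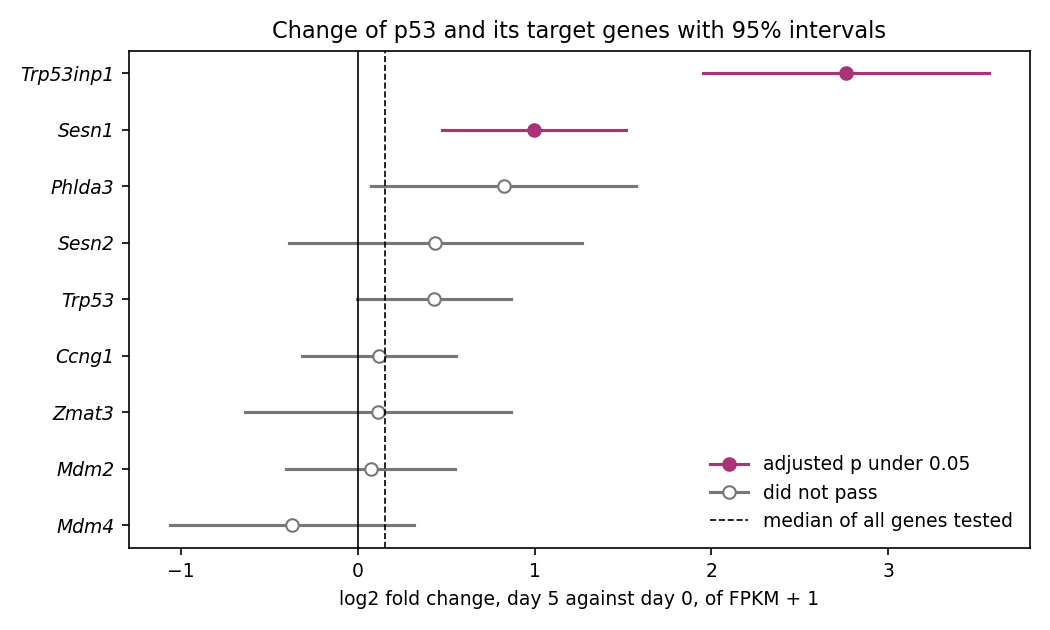
Log2 fold change of log2(FPKM + 1), day 5 against day 0, for the 9 tested members, with 95% confidence intervals from limma and the median of all tested genes as a dashed line. The intervals of Trp53inp1, Sesn1 and Phlda3 lie above 0, and those of Sesn1 and Trp53inp1 belong to the calls that passed after adjustment.

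Trp53 was abundant before differentiation, and no change of its RNA passed the test. It was at 67.0 and 61.4 FPKM on day 0 and at 93.3 and 81.0 FPKM on day 5 (64.2 ± 3.95 and 87.2 ± 8.69, SD, n = 2 each). The day 5 libraries were both above the day 0 libraries. The log2 fold change was 0.43 ± 0.17 (SE), with a 95% interval from -0.0042 to 0.87, and limma's adjusted p was 0.132. Its mean level stood at the 82.2nd percentile of tested genes on day 0 and at the 87.6th on day 5. RefSeq places Wrap53, on the opposite strand, directly next to the start of Trp53, and the sources used here do not say whether strand was used in counting. Wrap53, singled out after its values were seen, was at 7.48 and 7.37 FPKM on day 0 and 7.65 and 4.46 on day 5, far below Trp53. Trp53 also has a processed pseudogene, and reads shared with it may have been split. The p53 relatives Trp63 and Trp73 were listed at 0 in every library.

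The inhibitors of p53 showed no called change. Mdm2 was at 24.8 and 25.9 FPKM on day 0 and at 27.9 and 25.7 on day 5, and the days overlapped. Its log2 fold change was 0.07 ± 0.19 (SE), with an interval from -0.40 to 0.55 and a limma adjusted p of 0.798, and with quantile normalization it was -0.06. Mdm4 was at 19.9 and 13.3 FPKM on day 0 and at 11.9 and 12.8 on day 5, the one member whose day 5 libraries were both below its day 0 libraries. The gap between the days, however, lay within the spread of the day 0 replicates. The log2 fold change of Mdm4 was -0.37 ± 0.27 (SE), with an interval from -1.06 to 0.32 and a limma adjusted p of 0.360, and it was -0.09 without day 0 replicate 1 and -0.65 without day 0 replicate 2.

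Within each library, the Mdm2 level was set against that of Trp53, and the Mdm4 level against that of Mdm2. Mdm2 stood at 0.370 and 0.422 of the Trp53 level on day 0 and at 0.299 and 0.317 on day 5, lower in both day 5 libraries. Mdm4 stood at 0.804 and 0.512 of the Mdm2 level on day 0 and at 0.428 and 0.499 on day 5. The day 5 ratios of Mdm4 to Mdm2 were close to that of the second day 0 library, and the first day 0 library was the high one. These ratios were described and not tested.

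Ccng1 encodes cyclin G1, a classic p53 target that recruits a phosphatase to MDM2. It was the second most abundant member, at 44.4 and 48.4 FPKM on day 0 and at 52.5 and 48.6 FPKM on day 5. The groups were separated only by the small gap between 48.4 and 48.6 FPKM. Its log2 fold change was 0.12 ± 0.17 (SE), with an interval from -0.31 to 0.56 and a limma adjusted p of 0.635.

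The sestrins restrain the growth kinase mTORC1 by binding the GATOR2 complex and help the cell to cope with oxidative stress. Sesn1 rose, from 12.1 and 11.4 FPKM on day 0 to 23.7 and 25.2 FPKM on day 5 (11.75 ± 0.511 and 24.4 ± 1.08, SD, n = 2 each), a ratio of means of 2.08. The replicates lay close together and the days were well apart. The log2 fold change of Sesn1 was 1.00 ± 0.21 (SE), with an interval from 0.47 to 1.52 and a limma adjusted p of 0.0349. Its call sat near the threshold: the adjusted p was 0.0654 with no filter on low FPKM, and 0.0577 with quantile normalization, where the log2 fold change was 0.77. Over all alternatives the adjusted p of Sesn1 ran from 0.0274 to 0.187.

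Sesn2, which is also under the control of other stress factors, was at 14.1 and 7.80 FPKM on day 0 and at 13.8 and 15.5 on day 5. The first day 0 library fell within the day 5 range and the second stood below it. Its log2 fold change was 0.44 ± 0.33 (SE), with an interval from -0.39 to 1.27 and a limma adjusted p of 0.366, and was 0.83 without day 0 replicate 1 but 0.05 without day 0 replicate 2. On day 0 Sesn1 stood at 0.860 and 1.46 times the Sesn2 level, and on day 5 at 1.72 and 1.63 times. Whether the change of Sesn1 differed from that of Sesn2 was not tested.

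Trp53inp1 encodes a nuclear and autophagy-linked protein that promotes p53 activity and cell death. It had the largest change of the tested members, from 0.224 and 0.123 FPKM on day 0 to 7.65 and 6.28 FPKM on day 5 (0.174 ± 0.0717 and 6.96 ± 0.967, SD, n = 2 each). Its level was thus nearly nil before DMSO and modest after it, still below the median of tested genes. The log2 fold change of Trp53inp1 was 2.76 ± 0.32 (SE), with an interval from 1.95 to 3.57 and a limma adjusted p of 0.0121. With a pseudocount of 0.1 FPKM in place of 1 it was 4.71, and the plain ratio of means was 40.1, so the size of the change depends on the scale. Trp53inp1 passed the filter on low values only through its day 5 libraries. With no filter on low FPKM the limma adjusted p of Trp53inp1 was 0.0497. Over all alternatives its adjusted p ran from 0.0111 to 0.1675. A related gene, Trp53inp2, singled out after its values were seen, rose from 4.79 and 1.51 FPKM to 16.1 and 20.6 (log2 fold change 2.34, limma adjusted p = 0.031). The adjusted p of Trp53inp2 was 0.14 with no filter on low FPKM and ran from 0.12 to 0.1675 without one library.

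Phlda3 encodes a small lipid-binding protein that holds back the survival kinase AKT. It was at 5.79 and 3.77 FPKM on day 0 and at 9.11 and 9.08 on day 5, so both day 5 values lay above both day 0 values. Its log2 fold change was 0.83 ± 0.30 (SE), with an interval from 0.08 to 1.58, and it did not pass after adjustment (limma adjusted p = 0.105). Zmat3, an RNA-binding zinc finger protein that changes splicing, was at 4.09 and 3.55 FPKM on day 0 and at 4.79 and 3.70 on day 5, with overlapping days. Its log2 fold change was 0.12 ± 0.30 (SE), from -0.63 to 0.87 (limma adjusted p = 0.80), and was -0.19 with quantile normalization and -0.04 without day 5 replicate 1. Perp, a desmosome protein of epithelia that p53 induces during cell death, was listed at 0 in all 4 libraries and was not tested.

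The calls did not hold with any single library left out. In that design the lone library of a day is assumed to vary like the pair of the other day, and limma called 0 of the 9 members, while 2 or 3 of them were still at an unadjusted p under 0.05. Without one library the adjusted p of Sesn1 ran from 0.117 (without day 5 replicate 2) to 0.187 (without day 0 replicate 2), with log2 fold changes from 0.95 to 1.04. That of Trp53inp1 ran from 0.066 to 0.1675, with log2 fold changes from 2.63 to 2.88. Over the whole table the same designs called between 0 and 13 genes, with between 2504 and 3440 at an unadjusted p under 0.05.

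**Figure D3:**
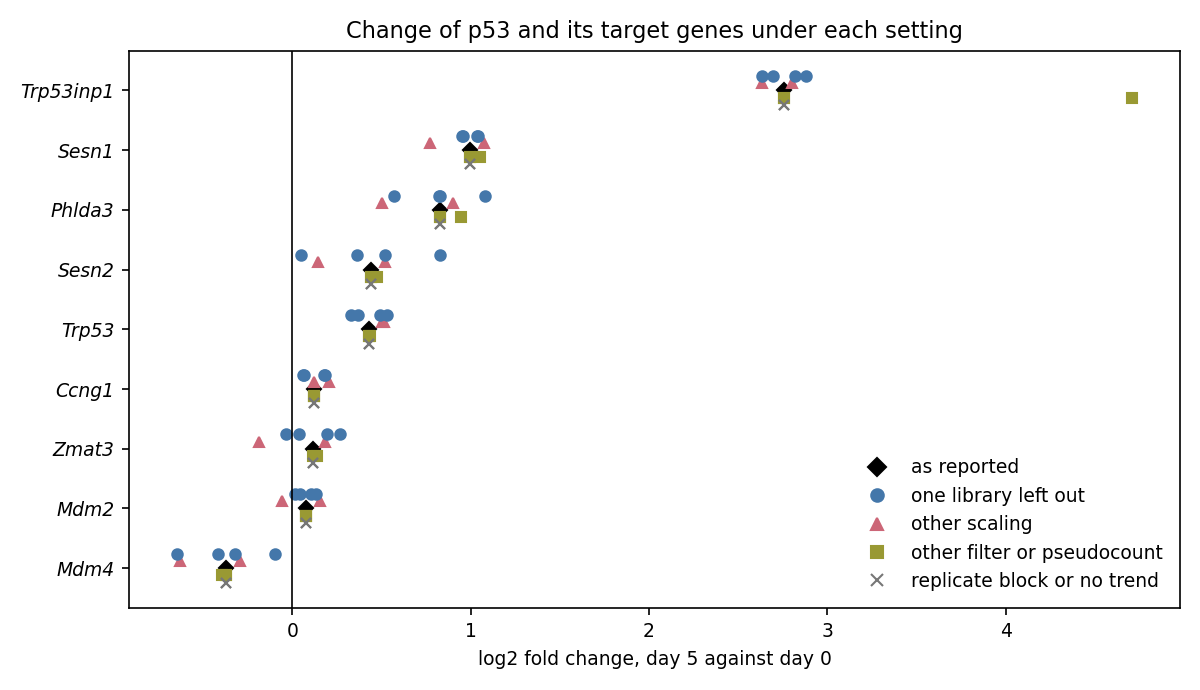
Log2 fold change, day 5 against day 0, of the 9 tested members as reported (diamonds), with one library left out (circles), with another scaling (triangles), with another filter or pseudocount (squares) and with the replicate number as a block or without the variance trend (crosses). Trp53inp1, Sesn1, Phlda3, Trp53, Sesn2 and Ccng1 stay above 0 at every setting shown, and Mdm4 stays below it. Zmat3 and Mdm2 cross 0, and Sesn2, Ccng1 and Mdm4 come close to it.

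Other genes of the pathway were taken from 7 lists. Their counts are to be read against the shares over all tested genes, 10.7% called higher and 7.81% called lower, and nothing is read from them about a list as a whole. The arrest genes held the largest changes and no common direction. Of 9 listed targets in cell cycle and growth arrest, 6 were tested, 2 rose and none fell, with a median log2 fold change of -0.42. Btg2, an antiproliferative cofactor of mRNA decay, rose from 2.80 and 0.537 FPKM to 73.2 and 70.3 (log2 fold change 4.91 ± 0.46, SE, limma adjusted p = 0.0084). Gadd45a, a growth arrest and stress signalling protein, rose from 7.43 and 6.52 FPKM to 72.3 and 109 (3.50, adjusted p = 0.0056). Cdkn1a, the p21 inhibitor of cyclin-dependent kinases and the best known p53 target, was singled out after its values were seen. It was at 13.9 and 9.21 FPKM on day 0 and at 7.35 and 7.93 on day 5, lower in both day 5 libraries (log2 fold change -0.52, limma adjusted p = 0.246). The log2 fold change of Cdkn1a was -0.24 without day 0 replicate 1, -0.79 without day 0 replicate 2 and -0.82 with quantile normalization. Plk2 and Rprm were listed at 0 throughout.

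Of 13 cell death targets, 10 were tested, 1 rose and none fell, with a median log2 fold change of 0.04. The one was Bid, which carries the death receptor signal to mitochondria, at 18.9 and 16.4 FPKM on day 0 and 39.2 and 43.9 on day 5 (log2 fold change 1.19, limma adjusted p = 0.023). The receptor genes Fas and Eda2r were listed at 0 on both days. All 10 repair and nucleotide supply targets were tested and limma called none, with a median of 0.32. At an unadjusted limma p under 0.05 there were 3 of these 10, against 38.6% of all genes. The same count was 3 of 6 tested arrest targets, 5 of 10 cell death targets and 7 of 13 metabolism targets. It was 9 of 26 regulators and 5 of 9 sestrin and GATOR partners. Pcna, the sliding clamp of DNA replication, was at 288.8 and 308.7 FPKM on day 0 and 300.7 and 322.3 on day 5 (log2 fold change 0.06, adjusted p = 0.805). Triap1, a small survival factor, was at 30.0 and 20.7 FPKM and then at 38.1 and 25.0, with overlapping days (0.30, adjusted p = 0.502, and from 0.0029 to 0.59 without one library).

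Among 16 targets in metabolism, redox control and secreted signals, 13 were tested, 2 rose and none fell, with a median of 0.42. Prkab1, a subunit of the energy sensor AMPK, rose from 50.6 and 33.8 FPKM to 144 and 122 (log2 fold change 1.66, limma adjusted p = 0.0186). Ddit4, which like the sestrins lowers mTORC1 activity, rose from 143.5 and 69.6 FPKM to 301 and 302 (1.58, adjusted p = 0.0388). Its day 0 replicates lay far apart: the log2 fold change was 2.10 without the first and 1.07 without the second. Without the variance trend its adjusted p was 0.0582, and over all alternatives it ran from 0.0312 to 0.168.

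All 26 regulators of p53 were tested, of which 2 rose and 1 fell, with a median of 0.05. Hipk2, a kinase that phosphorylates p53, rose from 10.3 and 8.48 FPKM to 33.8 and 32.6 (log2 fold change 1.73, limma adjusted p = 0.0139). Ppp1r13b, which encodes ASPP1 and steers p53 to death genes, rose from 4.45 and 2.58 FPKM to 10.9 and 20.0 (1.84, adjusted p = 0.0377). Its day 5 replicates differed, and with quantile normalization its adjusted p was 0.0558, within a range from 0.0299 to 0.215 over all alternatives. Npm1, the abundant nucleolar protein that binds MDM2 and ARF, fell from 3860 and 4287 FPKM to 1146 and 1362 (-1.70, adjusted p = 0.0126). Npm1 has processed copies in the genome, and the sources used here do not say how reads shared with them were assigned. Cdkn2a, singled out after its values were seen, encodes both the MDM2 inhibitor ARF and the kinase inhibitor p16 from shared exons, which a gene-level value does not separate. It was at 98.9 and 76.8 FPKM on day 0 and at 128.4 and 120.3 on day 5 (0.51, adjusted p = 0.115, and 0.33 without day 0 replicate 2).

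The list of sestrin and GATOR pathway partners had a median log2 fold change of 0.69. All 9 were tested, 3 rose and none fell. Both day 5 libraries lay above both day 0 libraries in 8, against 40.2% of all tested genes, and below them in 1, against 27.0%. The same counts, above and below, were 2 and 4 of 6 tested arrest targets and 5 and 3 of 10 cell death targets. They were 4 and 1 of 10 repair targets, 6 and 5 of 13 metabolism targets and 9 and 7 of 26 regulators. Nothing is read from these counts about a list. Sesn3, the third sestrin, rose from 3.11 and 4.92 FPKM to 34.7 and 27.9 (log2 fold change 2.70 ± 0.29, SE, limma adjusted p = 0.0107). Sesn3 is controlled mainly by FOXO factors and was therefore kept apart from the p53 targets. Nprl3, a subunit of GATOR1 that lies beside the alpha-globin genes and holds their main enhancer, rose from 2.02 and 3.11 FPKM to 8.51 and 10.1 (1.55, adjusted p = 0.0324), and its adjusted p was 0.0634 with quantile normalization. Depdc5, another GATOR1 subunit, was named after its values were seen as the remaining called gene of the list. It rose from 10.3 and 7.01 FPKM to 22.1 and 18.1 (1.14, adjusted p = 0.0474). Its call was lost when 0.1 FPKM was the pseudocount (0.0531), under quantile normalization (0.0744) and without the variance trend (0.0546). None of the called genes named from these lists passed with any one library left out. With no filter on low FPKM none of them passed either. There the adjusted p ran from 0.057 (Gadd45a and Hipk2) to 0.168 (Ddit4). Over all alternatives, the adjusted p ran from 0.0274 to 0.1677 for Nprl3 and from 0.0374 to 0.212 for Depdc5.

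**Figure D4:**
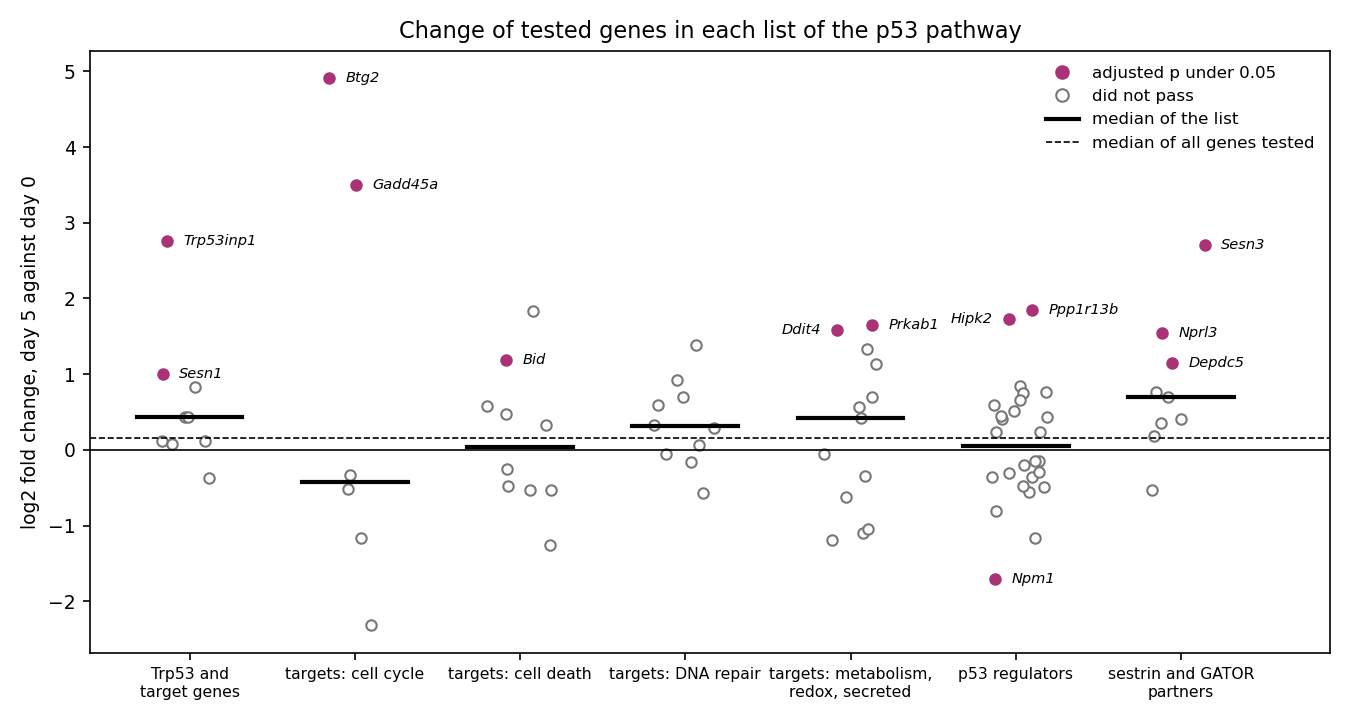
Log2 fold change, day 5 against day 0, of each tested gene in the member list and in 6 pathway lists (the p53 family had no tested gene), with each list's median as a bar and the median of all tested genes as a dashed line. Genes with an adjusted p under 0.05 are filled and named: 12 lie above 0 and Npm1 lies below it.

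Genes whose pattern over the 4 libraries was most like that of Trp53 were ranked by the root mean square difference in mean-centred log2(FPKM + 1), among the 8547 tested genes that averaged 5 FPKM or more. The closest were Nbas at 0.0151, Kif4 at 0.0174 and Kpna6 at 0.0198. Nbas acts in vesicle transport, Kif4 is a chromosome-bound kinesin and Kpna6 is a nuclear import receptor. Kif4 was at 45.9 and 40.7 FPKM on day 0 and at 63.3 and 54.3 on day 5, with the first replicate the higher on both days, as in Trp53. A pattern of this kind was not particular to these genes, as 298 of the 8547 genes compared lay within 0.1 of Trp53.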

How the data were processed

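RNA was measured in 4 MEL libraries, 2 each on day 0 and day 5. The authors deposited FPKM values in one table. Stranded libraries were built from total RNA, per the labels' protocols. Build mm9 and Bowtie are named without versions in the submitters' processing notes; the sources used here do not give the counting tool. The table holds no counts, so read depth is unknown and no counting interval is given.

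Genes at 1 FPKM or more in at least 2 libraries were tested on log2(FPKM + 1) with limma 3.58.1 in R 4.3.3 (trended empirical Bayes variance), and p-values were Benjamini-Hochberg adjusted over all 10736 genes. The script was tested on simulated data. With 2 replicates a day, p-values rest on the spread between these cultures only. The trended model draws each gene's variance toward that of genes of like level. A p-value is thus not set by the gene's own replicates alone. Replicate numbers were not treated as pairs. Named genes were every member and, from each pathway list, up to 2 called genes with the largest rise and 2 with the largest fall, or the 2 most abundant where none was called; the 3 genes most like Trp53; and Hba-a1, Alas2 and Sfpi1 as checks (Alas2 went from 19.7 and 10.7 to 647 and 752 FPKM). Members and lists were chosen with earlier results of these data known. Alternatives were other pseudocounts, filters, scalings, variance models and libraries left out. Chromatin and contact files list mm9 regions without gene names and were not analysed here. Promoters came from RefSeq (GRCm38.p6). A lymphoid marker is not reported here.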

Additional observations from a re-analysis of the deposited data

How the results depend on the processing

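Of 98 refits of single members, 84 kept direction and stayed called or not called as before, 11 kept direction but lost the call and 3 changed sign. Most of the 84 were refits of members that were not called to begin with. The 11 were all refits of Sesn1 and Trp53inp1, the only members called. Sign changes were Mdm2 (-0.057) and Zmat3 (-0.19) with quantile normalization and Zmat3 without one library (from -0.036 to 0.27); Wrap53 ran from -0.63 to 0.039 without one library. Over the whole table, limma called 1989 genes (1150 higher, 839 lower), but 237 (120 and 117) of 15168 with no filter, and from 0 to 13 without one library (0 to 2 higher, 0 to 11 lower). Members called went from 2 to 1 with no filter, with quantile normalization and with the replicate block, and to 0 without any one library. The median of the members, 0.43, was 0.14 with quantile normalization and ran from 0.18 to 0.49 without one library. Quantile normalization moved the median of all genes from 0.15 to 0.01 and the share of calls that were higher from 57.8% to 47.6%; removing globin and mitochondrially encoded genes moved that median to 0.23. Replicate numbers gave only 2 pairs, and their deviations correlated at r = 0.048. With so few pairs this value cannot tell whether cultures of the same number shared anything more. With the block, limma called 1797 genes, and Sesn1 (adjusted p = 0.0509) and Ppp1r13b (0.0501) did not pass. Zmat3 was not tested with a filter of 5 FPKM. The alternatives on region files were not run, as no mm9 annotation was used here. The number of libraries, 2 a day, limits the precision: the interval of Trp53 reached from -0.0042 to 0.87.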
